A study of Mus musculus with 6 samples.

Results

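Mast cells and basophils are the granule-rich cells that carry the high-affinity receptor for IgE, and the transcripts of their granule proteases, of that receptor and of their histamine enzyme were measured here in cultures of sorted mouse lung group 2 innate lymphoid cells (ILC2s). The genes were taken from the deposited count table by symbol, and all 9 (Tpsab1, Tpsb2, Cma1, Mcpt4, Cpa3, Fcer1a, Ms4a2, Hdc and Gata2) had a row among its 21825 genes. They were chosen by their detection, that is by having counts in these cultures, so their levels are given as a description, and only the comparison of TNFa with PBS is tested. All 9 passed the filter on low counts, which kept 15719 genes.

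The donors of the ILC2s were BALB/c mice, 6 weeks old, injected intraperitoneally 3 times with 1 µg of recombinant mouse IL-33. The sorted lung cells were cultured for 48 hours in IL-2 and IL-7, each at 10 ng/mL, either with TNFa at 40 ng/mL or with the PBS vehicle, so IL-33 in the animal and IL-2 with IL-7 in culture were common to every library. RNA was sequenced from 3 TNFa libraries (replicates 4, 5 and 6) and 3 PBS libraries (replicates 1, 2 and 3). The labels do not say whether these came from separate animals, separate cultures or pools, so p-values measure only the spread between the libraries, which may be technical.

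A mature mast cell stores its proteases in granules bound to a proteoglycan, and releases them with histamine when antigen crosslinks IgE on its surface. The proteases fall into tryptases, chymases and carboxypeptidase A3, and in mice the set differs between mast cells of connective tissue and those of mucosa. The IgE receptor consists of an α chain (Fcer1a) that binds IgE, a β chain (Ms4a2) that amplifies the signal, and a γ chain (Fcer1g) shared with other Fc receptors. Basophils share the receptor, Hdc, Cpa3 and Gata2 with mast cells but carry proteases of their own such as Mcpt8. ILC2s are lymphocytes without antigen receptors that secrete type 2 cytokines, among them IL-9, to which mast cells respond.

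The 4 tryptase and chymase genes are members of families of similar sequence; a read from a shared stretch can come from either gene. Tpsab1 and Tpsb2 were 77.1% identical over the 827 aligned bases of their coding sequences, with no identical stretch longer than 39 bases. Cma1 and Mcpt4 were 71.3% identical with no identical stretch longer than 27 bases, while Mcpt4 was 87.0% identical to its neighbour Mcpt1 and shared a stretch of 56 bases with Mcpt9 and with Cma2. The coding sequence around the active-site serine is shown for the 4 genes, 87 bases each from the GENCODE M21 transcripts, in the coding direction. Capitals mark the 5 codons that hold the serine.
Tpsab1: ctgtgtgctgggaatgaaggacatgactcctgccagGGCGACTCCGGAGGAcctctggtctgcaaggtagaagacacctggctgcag
Tpsb2: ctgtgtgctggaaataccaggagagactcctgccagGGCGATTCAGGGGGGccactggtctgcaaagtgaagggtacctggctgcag
Cma1: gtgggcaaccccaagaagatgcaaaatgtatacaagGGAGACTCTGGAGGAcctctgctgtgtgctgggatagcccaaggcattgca
Mcpt4: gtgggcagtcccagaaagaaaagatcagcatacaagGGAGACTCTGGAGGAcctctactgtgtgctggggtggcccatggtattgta
In this window the tryptases shared 67 of 87 bases and the chymases 69 of 87, against 38 to 41 of 87 between a tryptase and a chymase. The deposited counts are estimates that need not be whole, and 41.67% of all values in the table were whole within 0.01. Those of Fcer1a, Ms4a2, Hdc and Gata2 were whole in all 6 libraries, and those of Cpa3 in 4 libraries. Those of Tpsab1 were whole in 1 library and those of Tpsb2, Cma1 and Mcpt4 in 0. Among their relatives the values of Mcpt1 were whole in 3 libraries, of Mcpt2 in 5 and of Ctsg in 6. Abundant genes outside these families varied as well. The values of Srgn, Il2ra and Grb2 were whole in 0 libraries and those of Gata3 in 1, while those of Il5 were whole in 6. What made a value whole or not was not tested.

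Regulatory sequence was compared for a motif of the GATA factors, the family of Gata2. RefSeq promoters (GRCm38.p6, the assembly also called mm10) were found for 7 of the 9 genes, and the 250 bases before each start were searched for AGATAA or TGATAA on both strands. Neighbouring matches of these words can share 1 base, which does not alter the number of windows with a match. Of all 32851 such windows 16.6% held a match, and of the 7 genes 4 did (Mcpt4, Cpa3, Fcer1a and Ms4a2). A pair is shown with matches in capitals, Cpa3 because its level was the steadiest across libraries among the 4 and Ms4a2 because its level varied the most. Both are on the minus strand, Cpa3 at chr3:20242182-20242431 and Ms4a2 at chr19:11623720-11623969.
Cpa3: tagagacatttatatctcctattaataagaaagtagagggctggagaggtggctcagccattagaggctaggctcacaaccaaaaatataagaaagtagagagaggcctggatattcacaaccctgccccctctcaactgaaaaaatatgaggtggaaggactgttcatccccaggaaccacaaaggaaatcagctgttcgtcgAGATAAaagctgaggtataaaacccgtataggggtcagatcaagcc
Ms4a2: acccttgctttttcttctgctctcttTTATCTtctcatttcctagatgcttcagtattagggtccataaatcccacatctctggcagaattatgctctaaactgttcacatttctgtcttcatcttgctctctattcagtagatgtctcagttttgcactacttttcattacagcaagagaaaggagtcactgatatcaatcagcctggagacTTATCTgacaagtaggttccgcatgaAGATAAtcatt
The match in Cpa3 began 46 bases before the start, and the matches in Ms4a2 began 224, 37 and 11 bases before it. A match describes the letters only.

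The libraries held 25089415 to 32487004 counts with TNFa and 29185442 to 30908757 with PBS. TNFa replicate 5 stood apart from the rest, with a mean correlation to the other libraries of 0.949 on the log2 scale of CPM (counts scaled to library size) against 0.964 to 0.967 for the remaining 5, and some fold changes are given without it as well. Of 13 ILC2 marker genes all were tested. Gata3 was at 646 to 746 CPM with TNFa and 897 to 1034 CPM with PBS, and Il5 at 5237 to 5796 CPM with TNFa and 4009 to 4840 CPM with PBS, while Thy1 was low, at 2.53 to 4.52 CPM with TNFa and 2.32 to 3.51 CPM with PBS. Of the 13 genes 7 were lower and 1 higher with TNFa without overlap, and Icos passed, at 480 to 545 CPM with TNFa and 809 to 940 CPM with PBS (edgeR adjusted p = 0.0363). Over all tested genes 8.35% were lower and 6.85% higher without overlap, the shares to set beside each such count below.

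Together the 9 genes took 0.131%, 0.134% and 0.150% of all counts in TNFa replicates 4, 5 and 6, against 0.134%, 0.136% and 0.125% in PBS replicates 1, 2 and 3. The 95% Wilson interval, which covers counting error only, ran from 0.149% to 0.151% for the highest of these shares and from 0.123% to 0.126% for the lowest. TNFa replicate 6 was highest and PBS replicate 3 lowest, and the groups overlapped. Tpsab1, Tpsb2, Cma1 and Cpa3 made up 94.5% to 95.8% of this sum in every library, and Tpsab1 alone 51.7% to 56.5%. In bulk samples such as these, fewer cells of a type and less RNA per cell cannot be told apart, nor can a transcript of the ILC2s and one of other cells in the culture.

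The level per exon length, in TPM (counts divided by length and scaled to a fixed sum per library), put Tpsab1, Cma1, Tpsb2 and Cpa3 above the other 5 genes in every library. The remaining protease, Mcpt4, lay below the receptor chain Fcer1a in every library. The order was Tpsab1 (mean 942 TPM over the 6 libraries), Cma1 (547), Tpsb2 (351), Cpa3 (219), Fcer1a (57.9), Mcpt4 (22.5), Gata2 (8.12), Hdc (5.32) and Ms4a2 (4.53). From Tpsab1 down to Gata2 the ranges of neighbouring genes did not overlap. Gata2 and Hdc overlapped in range, as did Hdc and Ms4a2, so the order of the last 3 genes is not separated by their spread. The order also depends on the exon lengths used as divisors. In CPM, Gata2 (mean 15.9 with TNFa and 16.5 with PBS) and Hdc (10.9 and 14.2) lay above Mcpt4 (9.86 and 8.89). Among 14683 protein-coding genes Tpsab1 ranked between 93rd and 145th by library and Cma1 between 223rd and 289th, while Ms4a2 ranked between 7704th and 10528th.

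**Figure D1:**
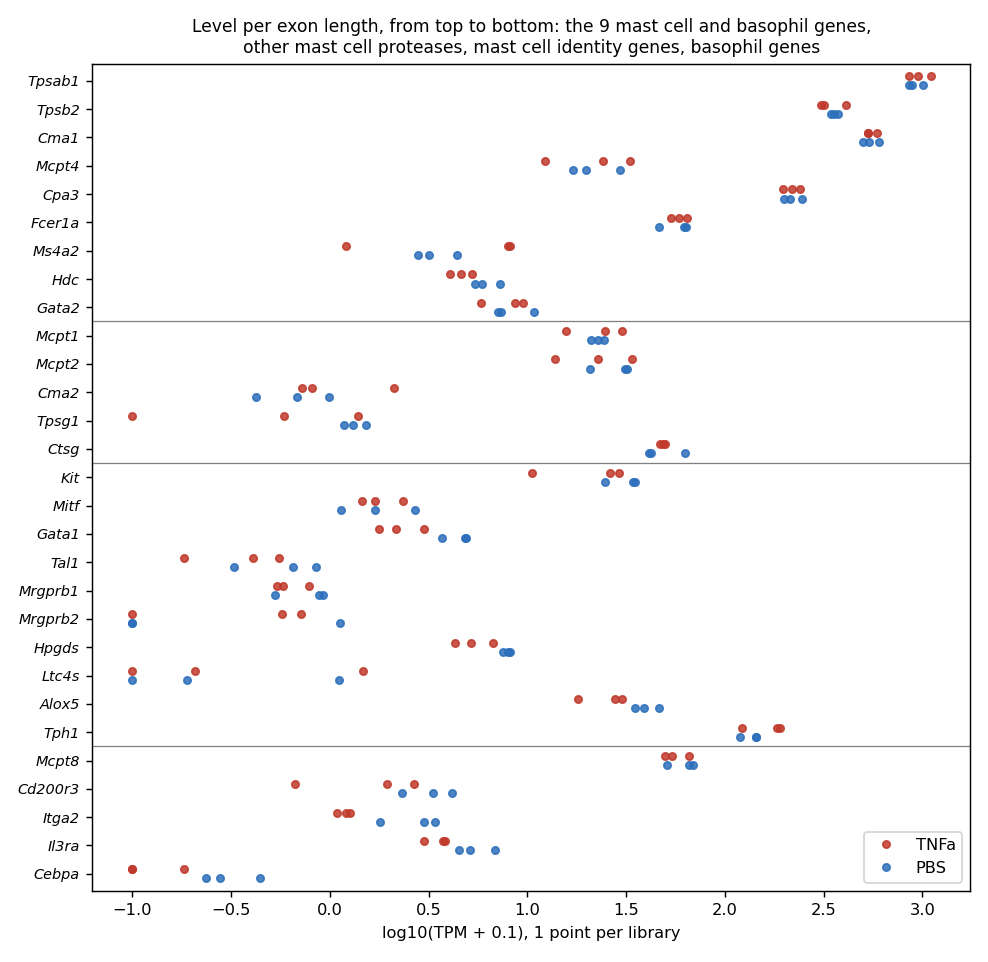
Level per exon length of the 9 genes (top block) and of other mast cell proteases, mast cell identity genes and basophil genes (lower blocks) in each library, as log10(TPM + 0.1), with TNFa points drawn above PBS points in each row; a point at -1 is a library with 0 TPM. The 4 most abundant proteases lie at 197 TPM or more in all 6 libraries, and Ms4a2 has the widest spread of the 9 genes, from 1.11 to 8.08 TPM.

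No difference between TNFa and PBS passed the test for any of the 9 genes. By edgeR's quasi-likelihood test, its p-values adjusted over the whole table (Benjamini-Hochberg), 0 of 9 passed an adjusted p under 0.05, the threshold used throughout. Of all tested genes 0.102% passed, 0.0891% higher and 0.0127% lower with TNFa. Further, 0 of 9 had an unadjusted p under 0.05, where 8.31% of all tested genes did. DESeq2 called 0 of the 9, with 0 at an unadjusted p under 0.05, and 1.39% of all tested genes. The adjusted p-values ran from 0.659 to 0.981, the median log2 fold change was 0.05 against 0.0047 over all tested genes, and 6 genes had higher means with TNFa and 3 had lower ones. The groups did not overlap for 1 of the 9 genes, Hdc, which was lower with TNFa. Of all tested genes 15.2% had no overlap, 6.85% higher and 8.35% lower. A gene that misses the threshold is not thereby shown to be equal, so the interval of each fold change is given.

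**Figure D2:**
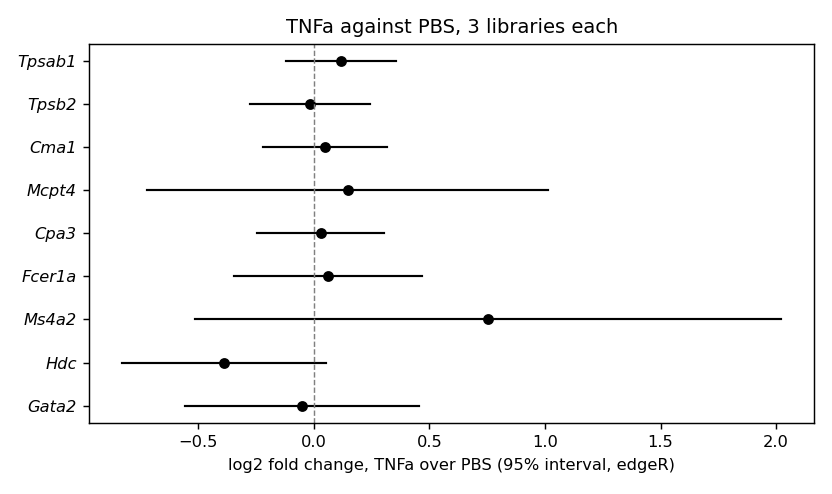
Log2 fold change of TNFa over PBS for each gene (points) with its 95% interval (lines), from the edgeR fit on 3 libraries per group. The intervals of all 9 genes include 0; they are narrow for Tpsab1, Tpsb2, Cma1 and Cpa3 and wide for Mcpt4 and Ms4a2.

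The tryptase genes varied little between libraries, and Tpsab1 was the most abundant of the 9 genes. Tpsab1 and Tpsb2 encode trypsin-like proteases that act as tetramers and are separated by 20742 bases of chromosome 17. In mm10 Tpsab1 spans 25343245 to 25345562 on the minus strand and Tpsb2 spans 25366305 to 25369098 on the plus strand. Tpsab1 was at 717, 750 and 822 CPM in TNFa replicates 4, 5 and 6 and at 713, 764 and 633 CPM in PBS replicates 1, 2 and 3. TNFa replicate 6 was highest, PBS replicate 3 lowest, and the groups overlapped. Its fold was 1.08 (95% interval 0.920 to 1.28; log2 fold change 0.12 ± 0.11, SE, edgeR adjusted p = 0.813). Tpsb2 was at 181, 204 and 234 CPM with TNFa and at 209, 217 and 199 CPM with PBS. Its lowest and its highest library were both TNFa libraries, and the PBS values lay between them. Its fold was 0.989 (95% interval 0.827 to 1.18). The count of Tpsb2 for each count of Tpsab1 was 0.2531, 0.2718 and 0.2844 with TNFa and 0.2936, 0.2845 and 0.3146 with PBS. Every TNFa value lay below every PBS value, with TNFa replicate 6 barely below PBS replicate 2. The ratio was not tested. Summed into 1 row, the pair had a log2 fold change of 0.09 (edgeR adjusted p = 0.868).

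The chymase genes differed in level and in steadiness. Cma1 encodes mast cell protease 5, which in mice cleaves like an elastase, and Mcpt4 encodes mast cell protease 4, a chymase of connective tissue mast cells in mice. Both are on the minus strand of chromosome 14 in mm10, Cma1 at 55941451 to 55944675 and Mcpt4 at 56059629 to 56062313, with 114953 bases between them. Cma1 was at 208, 241 and 228 CPM with TNFa and at 251, 198 and 205 CPM with PBS. PBS libraries held both its highest and its lowest value. Its fold was 1.03 (95% interval 0.859 to 1.25, edgeR adjusted p = 0.944). Mcpt4 was at 9.60, 15.2 and 4.81 CPM with TNFa and at 8.35, 6.87 and 11.5 CPM with PBS. TNFa replicate 5 was 3.15 times as high as TNFa replicate 6, and all PBS values lay between these extremes. Its fold was 1.11 (95% interval 0.607 to 2.02), and its direction turned without TNFa replicate 5 (log2 fold change -0.31 ± 0.34, SE, edgeR adjusted p = 0.858, and 0.709 to 1 over the alternatives run).

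The neighbours of Mcpt4 in the chymase locus were measured beside it because of their similar sequence. Mcpt1, a chymase of mucosal mast cells, was at 8.97, 12.7 and 5.63 CPM with TNFa and at 8.83, 7.76 and 8.67 CPM with PBS. Mcpt2, which encodes another protease of mucosal mast cells, was at 5.26, 14.99 and 8.56 CPM with TNFa and at 12.7, 7.96 and 11.9 CPM with PBS. Mcpt4, Mcpt1 and Mcpt2 each had their highest value in TNFa replicate 5, the library that stood apart. Without it the log2 fold change of Mcpt1 was -0.21 ± 0.28 in place of 0.11 ± 0.30, and that of Mcpt2 was -0.65 ± 0.30 in place of -0.18 ± 0.36 (SE). The part of divided reads in this was not tested. Ctsg, cathepsin G of mast cells and myeloid cells, was at 17.3 to 21.0 CPM with TNFa and 15.04 to 24.7 CPM with PBS. Tpsg1, a membrane-anchored tryptase, was at 0 to 0.748 CPM with TNFa and 0.544 to 0.696 CPM with PBS, and Cma2 stayed under 1 CPM in every library. Of the 4 other mast cell proteases that were tested, 0 passed in edgeR (2 had higher and 2 lower means with TNFa; median log2 fold change -0.07), and 0 had groups without overlap.

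Cpa3, carboxypeptidase A3, trims residues from the ends of peptides and is made by mast cells and by basophils. It lies on chromosome 3 (mm10, 20215620 to 20242181, minus strand) and overlaps the microRNA gene Mir7007 on the same strand. It was at 120, 125 and 129 CPM with TNFa and at 143, 110 and 114 CPM with PBS. The TNFa libraries lay within the range of the PBS libraries. Its fold was 1.02 (95% interval 0.843 to 1.24, edgeR adjusted p = 0.968). For each count of Cma1 there were 0.576, 0.518 and 0.567 counts of Cpa3 with TNFa and 0.569, 0.555 and 0.555 with PBS. This ratio varied far less between libraries than that of Mcpt4 to Cma1, which was 0.0461, 0.0630 and 0.0211 with TNFa and 0.0333, 0.0345 and 0.0558 with PBS.

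**Figure D3:**
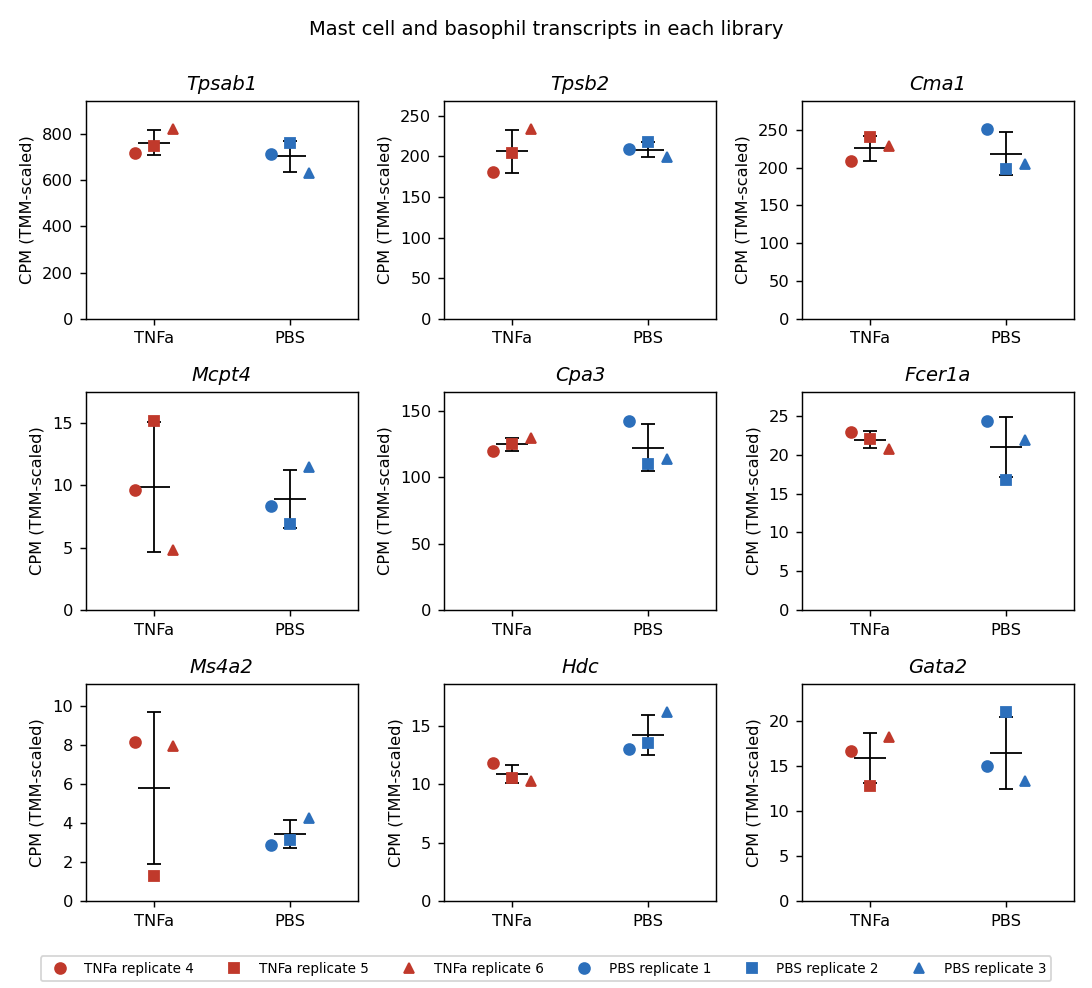
TMM-scaled CPM of the 9 genes in each library (points, with replicate shown by shape), with the mean (wide dash) and SD (bars) of the 3 TNFa and the 3 PBS libraries; each axis starts at 0. The groups are separated only for Hdc, and Ms4a2 divides the TNFa libraries into 2 high values (8.18 and 7.96 CPM) and 1 low value (1.31 CPM).

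The IgE receptor genes did not behave alike across libraries. Fcer1a, the chain that binds IgE (mm10, chromosome 1, 173221284 to 173227214, minus strand), was at 23.0, 22.1 and 20.8 CPM with TNFa and at 24.4, 16.8 and 21.9 CPM with PBS. The TNFa libraries lay within the PBS range, and the fold was 1.04 (95% interval 0.788 to 1.38, edgeR adjusted p = 0.954). Ms4a2, the signal-amplifying chain (mm10, chromosome 19, 11615523 to 11623719, minus strand), had 207, 35 and 263 counts with TNFa and 85, 93 and 135 counts with PBS. In CPM these were 8.18, 1.31 and 7.96 with TNFa and 2.90, 3.16 and 4.27 with PBS. TNFa replicates 4 and 6 lay above every PBS library and TNFa replicate 5 below every one, a 6.25-fold range from lowest to highest library that was the widest of the 9 genes. The fold was 1.69 with a 95% interval of 0.701 to 4.06 (edgeR adjusted p = 0.772). Without TNFa replicate 5 the log2 fold change was 1.22 ± 0.30 (SE) in place of 0.76 ± 0.57, and still did not pass (edgeR adjusted p = 0.15, and 0.15 to 0.998 over the alternatives run).

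For each count of Fcer1a there were 0.356, 0.0592 and 0.383 counts of Ms4a2 with TNFa and 0.119, 0.189 and 0.195 with PBS. Scgb1a1, a marker of airway club cells, was also high in TNFa replicates 4 and 6 and low in replicate 5, at 81.0, 0.187 and 46.1 CPM in replicates 4, 5 and 6, against 0.0341, 6.09 and 8.07 CPM with PBS. The whole list of 5 structural cell markers summed to 142 to 198 CPM with TNFa and 119 to 153 CPM with PBS, and its collagen gene Col1a1 stayed at or below 0.222 CPM. Its other genes did not follow Scgb1a1. Sftpc, of alveolar type 2 cells, was at 0.909, 14.5 and 5.96 CPM with TNFa and at 7.67, 4.66 and 0.791 CPM with PBS. Pecam1, listed as an endothelial marker, was at 101, 145 and 76.7 CPM with TNFa and at 118, 79.3 and 86.6 CPM with PBS. It was the most abundant gene of this list in every library, and whether it came from endothelial cells was not tested. Sftpc and Pecam1 were both highest in TNFa replicate 5. The epithelial marker Epcam was lower without overlap, at 13.3 to 15.4 CPM with TNFa and 26.2 to 29.2 CPM with PBS, and did not pass (edgeR adjusted p = 0.0879; without TNFa replicate 5 it passed with 0.0491, and the alternatives ran from 9.36e-06 to 0.487). Eosinophil markers divided these libraries differently: Prg2 was at 13.1, 35.5 and 0 CPM with TNFa and at 0, 2.76 and 0 CPM with PBS, and the 8 markers summed to 4.14 to 63.8 CPM with TNFa and 5.18 to 11.2 CPM with PBS. The part of these other cells in the Ms4a2 values was not tested. Fcer1g, the γ chain, was at 12.4, 19.0 and 15.5 CPM with TNFa and at 14.1, 14.2 and 13.9 CPM with PBS (log2 fold change 0.15 ± 0.20, SE, edgeR adjusted p = 0.883), and its log2 fold change was -0.01 without TNFa replicate 5.

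Hdc, histidine decarboxylase, makes histamine from histidine (mm10, chromosome 2, 126593667 to 126619299, minus strand). It was at 11.8, 10.5 and 10.3 CPM with TNFa and at 13.0, 13.5 and 16.2 CPM with PBS. Every TNFa library lay below every PBS library. The means were 10.9 ± 0.786 CPM with TNFa and 14.2 ± 1.70 CPM with PBS (SD, n = 3 each). The fold was 0.764 with a 95% interval of 0.563 to 1.04 that includes 1, and the difference did not pass (log2 fold change -0.39 ± 0.20, SE, edgeR unadjusted p = 0.0775 and adjusted p = 0.659). Of the genes for histamine receptors and breakdown, Hrh2 alone was tested. Hrh2 was at 0.0748 to 3.56 CPM with TNFa and 0.954 to 3.61 CPM with PBS. Hrh4 fell below the filter, and Hrh1, Hnmt and Aoc1 had no row under these symbols among the deposited counts.

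Gata2, a transcription factor on which mast cell and basophil development depends, lies on chromosome 6 (mm10, 88193891 to 88207032, plus strand). It was at 16.6, 12.9 and 18.2 CPM with TNFa and at 15.03, 21.0 and 13.4 CPM with PBS. The groups overlapped, with the lowest value in TNFa replicate 5 and the highest in PBS replicate 2, and the fold was 0.965 (95% interval 0.679 to 1.37, edgeR adjusted p = 0.969). Per length Gata2 was at 7.90 ± 1.96 TPM with TNFa and 8.33 ± 2.05 TPM with PBS (SD, n = 3 each), while Gata3, the factor on which ILC2s depend, was at 473 ± 72.8 TPM with TNFa and 670.2 ± 38.5 TPM with PBS. Gata1, which acts with Gata2 in mast cells, was at 1.46, 2.09 and 2.51 CPM with TNFa and at 4.46, 4.18 and 3.10 CPM with PBS. All TNFa libraries of Gata1 lay below all PBS libraries, and the difference did not pass (log2 fold change -0.95 ± 0.37, SE, edgeR adjusted p = 0.514).

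**Figure D4:**
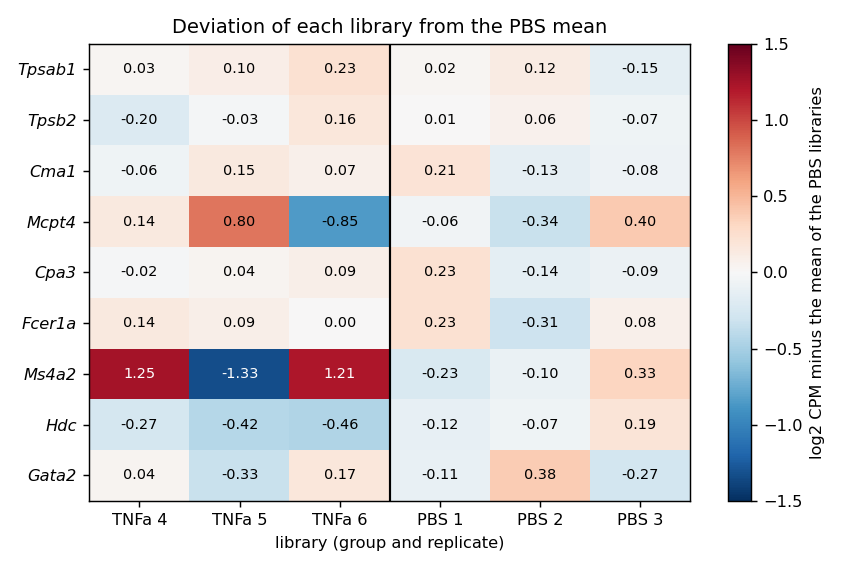
Log2 CPM of each gene in each library minus its mean over the PBS libraries, with TNFa libraries to the left of the line and PBS libraries to the right; red is above and blue below the PBS mean. The rows of Tpsab1, Tpsb2, Cma1, Cpa3 and Fcer1a stay close to 0, and the largest deviations are those of Ms4a2 (1.25, -1.33 and 1.21 in TNFa replicates 4, 5 and 6).

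The 9 genes did not rise and fall together from library to library. Over the 6 libraries Pearson's r of log2 CPM ran from -0.82 (Tpsab1 with Hdc) to 0.918 (Cma1 with Cpa3) over the 36 pairs, of which 16 were positive. The libraries share their total as denominator, and 6 points give such values little weight. The lowest and highest library differed by 1.26- to 1.30-fold for Tpsab1, Tpsb2, Cma1 and Cpa3. They differed by 1.45- to 1.64-fold for Fcer1a, Hdc and Gata2, by 3.15-fold for Mcpt4 and by 6.25-fold for Ms4a2. No library was uniformly high or low: PBS replicate 1 was highest for 3 genes (Cma1, Cpa3 and Fcer1a), and PBS replicate 2 was lowest for the same 3 genes. Among 8743 other genes with a mean of at least 10 CPM, those whose pattern over the 6 libraries was closest to the mean standardised pattern of the 9 genes were Grpel2 (r = 0.994), BC064078 (0.979), Zfp523 (0.963), Tarbp2 (0.955) and Tuba4a (0.955). With 6 points and this many genes such values are a description only.

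Other genes of mast cells and basophils were measured to place the 9 genes. Of 10 mast cell identity genes 9 were tested, 0 passed in edgeR, and 3 had groups without overlap, all lower with TNFa (Gata1, Hpgds and Alox5). Kit, the receptor for stem cell factor, was at 83.5, 38.7 and 92.1 CPM with TNFa and at 84.5, 111 and 110 CPM with PBS; TNFa replicate 5 was lowest, and the difference did not pass (log2 fold change -0.51 ± 0.27, SE, edgeR adjusted p = 0.685). Without TNFa replicate 5 the log2 fold change of Kit was -0.22 ± 0.13 (SE, edgeR adjusted p = 0.623, and 0.503 to 0.998 over the alternatives run). Kit also marks some lymphoid cells, so it does not point to mast cells alone. Tph1, which makes serotonin in mast cells and is known in ILC2s as well, was at 410, 313 and 417 CPM with TNFa and at 282, 323 and 311 CPM with PBS. The mast cell receptor gene Mrgprb2 was at 0 to 0.454 CPM with TNFa and 0 to 0.818 CPM with PBS, and was at 0 in 3 of the 6 libraries. Ltc4s, leukotriene C4 synthase, stayed at or below 0.484 CPM in every library.

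Alox5, which starts leukotriene synthesis, was at 41.0, 30.9 and 44.2 CPM with TNFa and at 61.3, 52.4 and 66.8 CPM with PBS. All TNFa libraries lay below all PBS libraries, and the difference did not pass (log2 fold change -0.64 ± 0.17, SE, edgeR adjusted p = 0.296). Of 7 genes of granule storage 6 were tested, 0 passed, and 1 had groups without overlap. It was Ndst2, which sulfates the heparin of the granules, at 23.1, 18.2 and 30.0 CPM with TNFa and at 34.0, 31.6 and 34.5 CPM with PBS (log2 fold change -0.49 ± 0.19, SE, edgeR adjusted p = 0.52). Srgn, the core of the granule proteoglycan and abundant in many leukocytes, was at 922, 1128 and 919 CPM with TNFa and at 990, 845 and 968 CPM with PBS. The basophil list held Mcpt8, a protease of basophils, at 19.4, 27.3 and 17.7 CPM with TNFa and at 25.1, 18.6 and 24.1 CPM with PBS, where the groups overlapped (edgeR adjusted p = 0.953). Of its 4 tested genes 0 passed and 2 had groups without overlap, Itga2 and Il3ra, lower with TNFa. Cebpa stayed at or below 0.317 CPM, and Prss34, also on this list, had no row under that symbol among the deposited counts. Per length Mcpt8 stood at 56.4 ± 8.18 TPM with TNFa and 61.7 ± 9.33 TPM with PBS, close to the level of Fcer1a at 58.4 ± 5.44 TPM with TNFa and 57.4 ± 9.77 TPM with PBS (SD, n = 3 each).

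The signalling genes downstream of the IgE receptor are largely shared with antigen receptors of lymphocytes. Of 20 genes tested, 0 passed in edgeR, 4 had higher and 16 lower means with TNFa, and 4 had groups without overlap, all lower (median log2 fold change -0.13). Those 4 were Syk, Lat2, Plcg2 and Pik3cd. Syk, the kinase recruited by the γ chain, was at 3.00, 1.91 and 2.78 CPM with TNFa and at 3.65, 6.74 and 6.05 CPM with PBS (log2 fold change -1.09 ± 0.36, SE, edgeR adjusted p = 0.429). Lat2, a membrane adaptor used in mast cells, was at 150, 157 and 155 CPM with TNFa and at 184, 184 and 190 CPM with PBS (edgeR adjusted p = 0.454). The list's most abundant genes were Lcp2, Grb2 and Pik3cd.

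Cytokines that act on mast cells gave the 1 call among the lists of the mast cell pathway. Il9, a growth factor for mast cells, rose with TNFa to 128, 121 and 122 CPM against 24.1, 22.7 and 28.8 CPM with PBS (log2 fold change 2.29 ± 0.13, SE, edgeR adjusted p = 0.000166). Kitl, the stem cell factor gene, was at 12.1, 12.4 and 11.4 CPM with TNFa and at 21.7, 23.2 and 23.7 CPM with PBS, without overlap, and did not pass (log2 fold change -0.94 ± 0.16, SE, edgeR adjusted p = 0.101). The receptor chain Il9r was at 57.3, 61.6 and 64.9 CPM with TNFa and at 87.7, 97.98 and 101 CPM with PBS, also without overlap and without passing (edgeR adjusted p = 0.108). Both passed without TNFa replicate 5 (edgeR adjusted p = 0.0491 for Kitl and 0.0389 for Il9r) and with DESeq2. Over all alternatives the adjusted p of Kitl ran from 2.1e-05 to 0.487 and that of Il9r from 0.000211 to 0.549. Over the 8 receptor genes for mast cell cytokines 0 passed, 1 had a higher and 7 a lower mean with TNFa. Of these 8 genes 1 was higher and 3 were lower without overlap.

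Markers of other cell types that a sort could carry over were measured in the same libraries. The 6 T cell markers summed to 74.2 to 82.3 CPM with TNFa and 85.6 to 94.6 CPM with PBS, the 4 B cell markers to 13.8 to 16.5 CPM with TNFa and 20.2 to 20.6 CPM with PBS, and the 7 myeloid markers to 11.6 to 30.1 CPM with TNFa and 16.3 to 35.5 CPM with PBS. The 9 mast cell and basophil genes summed to 1295 to 1475 CPM with TNFa and 1218 to 1380 CPM with PBS. These 9 genes were chosen by their detection, and Tpsab1 alone made up 51.7% to 56.5% of their counts. The sums are over different genes, so their sizes do not compare amounts of cell types.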

How the data were processed

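All 6 RNA-seq libraries were used. Per the labels' protocols, 10 ng of total RNA went into cDNA. The authors deposited estimated counts per gene from Partek's expectation-maximization quantification, per the file name. This method divides reads among similar genes. The submitters' processing notes list CASAVA 1.8.2, STAR and mm10. Neither annotation release nor strand setting is given in the sources used here.

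The edgeR package (4.0.16, R 4.3.3) was run on rounded counts (filterByExpr with minimum count 10 and minimum total 15, TMM scaling, robust quasi-likelihood test of TNFa against PBS, Benjamini-Hochberg adjustment over all 15719 tested genes, threshold 0.05). Standard errors came from the fold change and its F statistic, and intervals from these with the test's degrees of freedom. The code was tested on simulated data. CPM are TMM-scaled. TPM used union exon lengths from GENCODE M21, which gave a length for 21681 genes and the same coordinates for 21201 with the deposited end read as exclusive; coordinates are mm10 and 1-based. Coding sequences came from the longest complete coding transcript, and promoters from RefSeq. The reference sequences may differ from BALB/c.

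The genes and lists were chosen with earlier results of these data known. All 9 genes are named. From other lists, called genes, up to 3 of the most abundant genes and defining markers near 0 were to be named. Some genes with no overlap were added after their values were seen, while others, such as Gzmb and Il1rl1, are not described. Also added then were Mcpt1, Mcpt2, Alox5, Gata1, Fcer1g, Kitl, Il9r, Prg2, Sftpc, Thy1 and Scgb1a1. Alternatives were DESeq2 1.42.0, other scalings and filters, the tryptase pair as 1 row, and leaving out each library. One PBS library, replicate 2, is labelled a repeat.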

Additional observations from a re-analysis of the deposited data

How the results depend on the processing

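None of the 9 genes passed under any of the 12 alternatives (the test with DESeq2, DESeq2 size factors, upper-quartile scaling, no filter, a mean of at least 5 CPM, the tryptase pair as 1 row, and leaving out each of the 6 libraries); Ms4a2 was below the filter at 5 CPM. The count over all genes was less stable: 16 genes passed in the fit reported, 218 with DESeq2, 3 with no filter, 25 under the filter at 5 CPM, and 1 to 67 when 1 library was left out. It was 67 without TNFa replicate 5 and at most 5 without any other library. Fold changes of the 9 genes changed sign in 14 cases. Tpsb2 had a log2 fold change of 0.018 with upper-quartile scaling and 0.0055 at 5 CPM. Over all alternatives, log2 fold changes ranged from -0.12 to 0.065 for Tpsb2, from -0.017 to 0.16 for Cma1, from -0.31 to 0.48 for Mcpt4, from -0.042 to 0.16 for Cpa3, from -0.079 to 0.18 for Fcer1a and from -0.18 to 0.16 for Gata2; the cause was not tested. Tpsab1, Ms4a2 and Hdc kept their direction throughout. Of the other genes named, Il9 passed under all 12 alternatives, Icos under 6 and Kitl, Il9r and Epcam under 2 each, and Gata3, Alox5 and Itga2 passed with DESeq2 alone. The summed level had a log2 ratio of TNFa over PBS of 0.07. That ratio ran from 0.02 to 0.11 with DESeq2 size factors, upper-quartile scaling and leaving out each library. It was not computed under the other alternatives. No paired analysis was run. TNFa libraries are numbered 4 to 6 and PBS libraries 1 to 3, and the labels do not say whether any were paired. Depth was lowest for Ms4a2, with 35 counts in TNFa replicate 5.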
